A study of Mus musculus with 4 samples.

Results

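The Armcx and Gprasp genes form a small family of armadillo-repeat proteins, named for a fold built of short repeated helices. The family was taken as 9 gene names, Armcx1 to Armcx6, Armc10, Gprasp1 and Gprasp2, and followed through 4 arrays of mouse embryonic stem cells treated or not with valproic acid (VPA). A member was measured where a probe set, the group of oligonucleotides that gives 1 value on the array, carried its symbol and no other. By that rule 7 of the 9 names were measured, among 19938 genes in all, through 9 probe sets. Gprasp1 and Gprasp2 had no probe set of their own symbol alone and were not analysed here. Where a gene had several probe sets, the one with the highest mean over the 4 arrays stood for it. The family was chosen by the log2 difference of Armcx3 between VPA and untreated cells, which was already known, so the differences of its members between the groups are given as descriptions, with no test.

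Both groups were E14 cells, a mouse embryonic stem cell line, kept on mitotically blocked mouse embryonic fibroblasts as feeder cells in serum with leukemia inhibitory factor. In the untreated group (2 arrays) nothing was added, and in the VPA group (2 arrays) 0.5 mM VPA was in the medium for 4 h. VPA inhibits histone deacetylases, the enzymes that strip acetyl groups from histones, and the series asks what a low dose does to gene expression in that time. The labels call the samples replicates without saying that they came from separate cultures, so the spread between them may be technical. They do not say whether feeder RNA was kept out, and in such bulk RNA fewer cells of a type and less RNA per cell cannot be told apart.

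As background, Armc10 is the autosomal member, and the Armcx genes on chromosome X are thought to derive from a copy of it in placental mammals. Armcx3 sits in the mitochondrial outer membrane and, in mouse neurons, joins the Miro and Trak proteins that couple mitochondria to kinesin motors. Armcx1 also acts in mitochondrial transport in neurons, Armc10 has been tied to mitochondrial dynamics, and Gprasp1 binds the tails of G protein-coupled receptors and steers them to lysosomes. The family is best known from brain, and little is known of it in embryonic stem cells.

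The promoters show which letters neighbouring members share. RefSeq windows of GRCm38.p6, from 250 bases before to 50 after the annotated start, were found for 8 of the 9 names, all but Armcx3. Of 5 short motifs searched on both strands, CACGTG, the E-box letters, occurred in 7.15% of all 32851 windows and in those of Armcx1, Armcx4 and Armcx6, 3 of the 8. The percentages of all windows given here count windows, whereas members and neighbours are counted as genes. Counted by gene, 1483 measured genes had CACGTG in a window and 14131 with a window did not. The 4 windows below are shown because these genes flank Armcx3 on chromosome X and did not all move the same way. Capitals mark CACGTG and a run of 12 bases, which was picked out after the sequences had been read.
Armcx1, chrX:134717688-134717987, plus strand: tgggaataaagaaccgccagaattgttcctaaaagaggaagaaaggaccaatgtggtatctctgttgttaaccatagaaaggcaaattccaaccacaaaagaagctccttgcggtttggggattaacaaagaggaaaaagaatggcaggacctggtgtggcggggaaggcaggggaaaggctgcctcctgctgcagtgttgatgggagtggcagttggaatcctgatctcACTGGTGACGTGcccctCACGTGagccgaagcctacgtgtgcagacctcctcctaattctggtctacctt
Armcx6, chrX:134751370-134751669, minus strand: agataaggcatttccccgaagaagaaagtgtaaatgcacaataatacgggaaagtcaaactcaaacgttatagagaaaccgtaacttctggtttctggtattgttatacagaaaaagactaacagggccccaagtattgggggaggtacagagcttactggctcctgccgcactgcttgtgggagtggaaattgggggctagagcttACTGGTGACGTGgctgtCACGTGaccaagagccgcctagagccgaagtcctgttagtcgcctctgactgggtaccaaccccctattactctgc
Armcx4, chrX:134686269-134686568, plus strand: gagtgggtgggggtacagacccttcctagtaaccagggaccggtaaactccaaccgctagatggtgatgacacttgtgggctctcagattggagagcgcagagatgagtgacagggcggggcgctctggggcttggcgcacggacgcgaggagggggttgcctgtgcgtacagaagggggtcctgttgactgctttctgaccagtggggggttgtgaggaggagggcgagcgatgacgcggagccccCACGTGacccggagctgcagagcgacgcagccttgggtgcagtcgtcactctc
Armcx2, chrX:134809172-134809471, minus strand: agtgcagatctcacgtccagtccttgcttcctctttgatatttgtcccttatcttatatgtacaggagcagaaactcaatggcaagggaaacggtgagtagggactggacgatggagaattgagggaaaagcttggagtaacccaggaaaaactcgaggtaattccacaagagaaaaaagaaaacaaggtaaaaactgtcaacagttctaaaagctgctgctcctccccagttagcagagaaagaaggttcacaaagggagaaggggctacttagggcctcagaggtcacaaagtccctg
The run ACTGGTGACGTG is the longest stretch common to the windows of Armcx1 and Armcx6, and no other window holds it (2 of 32851, 0.00609%). Because the run was picked as their longest match, its presence in these 2 windows was fixed, and its share cannot be set beside those of the motifs. In both windows the run lies 5 bases ahead of CACGTG, which begins 3 bases before the start of Armcx1 and of Armcx4 and 26 bases before that of Armcx6. The Armcx2 window holds neither. Among genes of the Bex and Tceal families, which lie in the same stretch of chromosome X with Bhlhb9 and the Arxes genes, CACGTG occurred in 9 of the 14 genes of this neighbourhood that had a window. The remaining motifs were the GC box GGGCGG (35.7% of all windows, 3 of the 8 members), the CCAAT box (37.4%, 3 members), the TATA box TATAAA (13.6%, 0 members) and the cAMP response element TGACGTCA (1.79%, 0 members). Armcx5 and Gprasp1 share 1 annotated start and hence the same window.

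The deposited values are log2 signals, so a difference of 1 is a doubling. Across the 35556 probe sets the SD of the difference between arrays ran from 0.285 (the VPA pair) to 0.360 (untreated 2 against VPA 2), and untreated 2 was the array least like the rest. For the untreated pair it was 0.311, more than for untreated 1 against VPA 1 (0.297) or VPA 2 (0.301). With limma, 0 of 35556 probe sets were called at an adjusted p under 0.05 (0.0%), so no member and no gene named here passed. At an unadjusted p under 0.05, 5.9% of genes were higher and 2.71% lower. With 2 arrays a side, the smallest p that exact permutation allows is 0.33. All 12 pluripotency markers gave signals above the 95th percentile of the 1035 olfactory receptor probe sets, which stand here for genes not transcribed in these cells (3.27), and so did 14 of 17 fibroblast markers and 10 of 12 neuronal markers. Of all 19938 genes, 13515 did so too, so these counts alone do not show which cell types gave RNA. The fibroblast markers had a mean level of 5.06 and 5.14 in the untreated arrays and 5.01 and 4.999 in the VPA arrays, and 13 of them were lower with VPA. Pluripotency markers went from 10.14 and 10.08 to 9.92 and 9.96, with 9 lower and 3 higher. Of these 12, 8 were lower and 1 higher without overlap, against 18.1% and 24.1% of all genes. Among them 4 lower and 0 higher genes had an unadjusted p under 0.05. Nanog, a core pluripotency factor, differed by −0.48 ± 0.14 (SE) and Pou5f1, which encodes Oct4, by −0.11 ± 0.14. Of the 17 fibroblast markers 7 were lower and 3 higher without overlap, and 1 was higher and 1 lower at that p. Col1a1, a collagen chain, differed by −0.28 ± 0.19 and the surface protein gene Thy1 by 0.31 ± 0.12. Neuronal markers had means between 4.70 and 4.74 in the 4 arrays, and 0 of 12 had an unadjusted p under 0.05. Their part in the results on the family was not tested.

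Armcx3 was the member with the largest difference. Its main probe set (10568363) read 5.80 and 5.34 in the untreated arrays and 6.95 and 6.88 in the VPA arrays. Both VPA values lay more than 1 log2 unit above the higher untreated one, and the groups did not overlap. Means were 5.57 ± 0.33 and 6.91 ± 0.048 (SD, n = 2), a log2 difference of 1.35 ± 0.18 (SE), or 2.54-fold. This was the highest difference of all 19938 genes, a rank that was known when the family was chosen.

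The other 2 Armcx3 probe sets gave the same picture on lower signals. Probe set 10451851 read 5.37 and 4.77 without VPA and 6.39 and 6.21 with it, a log2 difference of 1.23 ± 0.22 (SE). Probe set 10601778 read 5.15 and 4.86 without VPA and 6.13 and 6.17 with it, a difference of 1.15 ± 0.14. In all 3 probe sets the VPA arrays lay above both untreated arrays, and untreated 2 was below untreated 1, by 0.47, 0.59 and 0.29. Placed among the 19938 genes, the differences of 10451851 and 10601778 would have ranked the second and the third. The main Armcx3 probe set counts among those genes, and no other gene exceeded the difference of 10451851. Centred on their own means, the 3 profiles lay within a root mean square distance of 0.14 of each other.

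All 3 probe sets carry the same transcript accessions, so they are not independent measurements. Neighbouring identifiers on this array mostly belong to genes of 1 chromosome, and that chromosome differed between the 3. Of the annotated neighbours among the 10 identifiers on each side, 13 of 13 lay on chromosome X for probe set 10601778, 18 of 20 on chromosome 7 for 10568363 and 19 of 19 on chromosome 17 for 10451851. RefSeq places Armcx3 itself on chromosome X. The probe set among X-linked neighbours was thus the dimmest of the 3 and gave the smallest difference. Where the probes of the others align, and whether copies of Armcx3 elsewhere contribute to their signal, was not tested.

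**Figure D1:**
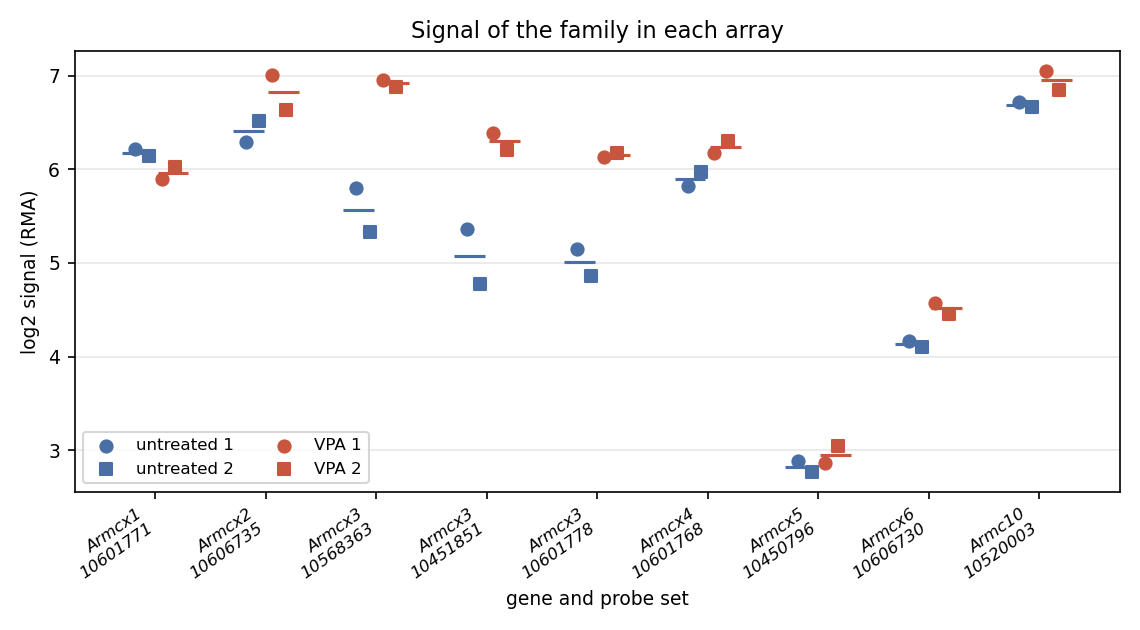
Log2 signal (vertical axis) of the 9 probe sets of the family (horizontal axis) in the 2 untreated and 2 VPA arrays, with bars at the group means. The VPA arrays stand clear of the untreated arrays in all 3 Armcx3 probe sets, while the remaining genes differ by at most 0.42 between means.

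Armcx6, Armcx4 and Armcx2, of the same stretch of chromosome X as Armcx3, also read higher in both VPA arrays than in either untreated array, by less. Armcx1, which lies between Armcx4 and Armcx6, read lower and is described after them. Armcx6 read 4.16 and 4.11 in untreated and 4.58 and 4.46 in VPA cells, a log2 difference of 0.38 ± 0.11 (SE). Armcx4, whose reading was 5.82 and 5.97 without and 6.17 and 6.30 with VPA, differed by 0.34 ± 0.12. The groups overlapped in neither gene, and the distance between the closest arrays was 0.29 for Armcx6 and 0.21 for Armcx4. Armcx2 read 6.29 and 6.52 in untreated and 7.005 and 6.63 in VPA cells. Its difference of 0.42 ± 0.17 leaned on VPA 1: the gap between the closest arrays was 0.12, and without VPA 1 the difference was 0.23, against 0.60 without VPA 2. In RefSeq the intervals of Armcx3 and Armcx6 overlap by 115 bases, and whether probes of either gene read the other was not tested.

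Armcx1, which like Armcx3 acts in mitochondrial transport, was the only member below its untreated level. It read 6.21 and 6.14 in untreated and 5.90 and 6.03 in VPA cells, a log2 difference of −0.21 ± 0.11 (SE). The groups did not overlap, with 0.12 between the closest arrays, which is no more than the 0.13 between the VPA arrays themselves. After a second quantile normalization of the arrays the difference was −0.29.

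Armc10, the member on chromosome 5, read 6.72 and 6.66 in untreated and 7.05 and 6.85 in VPA cells. That is a log2 difference of 0.26 ± 0.12 (SE), with no overlap but a gap of only 0.13 between the closest arrays, less than the 0.20 between the VPA arrays. Without VPA 1 the difference was 0.16, and without VPA 2 it was 0.36. Armcx5 read 2.88 and 2.77 against 2.87 and 3.04, a difference of 0.13 ± 0.12, and its groups overlapped. That difference ran from 0.040 without VPA 2 to 0.22 without VPA 1. Its probe set (10450796) was the dimmest of the family, below the 95th percentile of olfactory receptor probe sets, and 18 of its 18 annotated neighbours by identifier lay on chromosome 17, although RefSeq places the gene on X. It therefore gives little hold on Armcx5 in these cells.

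**Figure D2:**
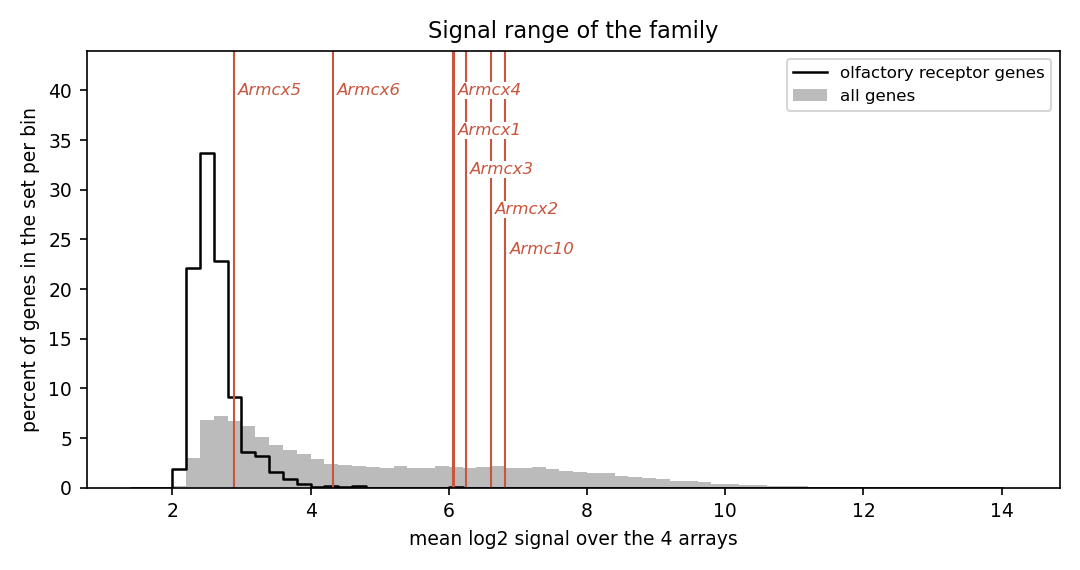
Mean log2 signal over the 4 arrays (horizontal axis) of all genes (grey) and olfactory receptor genes (black line), as a percent of each set per bin (vertical axis), with the main probe sets of the family as red lines. Armcx5 lies among the olfactory receptor genes and the other 6 lie above their 95th percentile of 3.27. Probe sets differ in how brightly they read, so the order of the red lines is not an order of RNA abundance.

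Counted together, 6 of the 7 measured members had a higher mean with VPA and 1 a lower one, where 53.7% of all genes were higher. The groups did not overlap in 5 members that were higher and 1 that was lower, against 24.1% and 18.1% of all genes. At 1.5-fold or more without overlap, 1 member was higher (0.973% of all genes) and 0 were lower (0.266%), and this member was Armcx3. It was also 1 of the 4 genes (0.0201%) at least 2-fold higher with VPA without overlap. The median log2 difference was 0.34 over the 7 members, 0.30 over the 6 without Armcx3, and 0.015 over all genes. These counts rest on the contrast by which the family was chosen and carry no further weight. Armcx3 stood 0.93 above the next member, and the remaining 6 ran from −0.21 to 0.42.

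**Figure D3:**
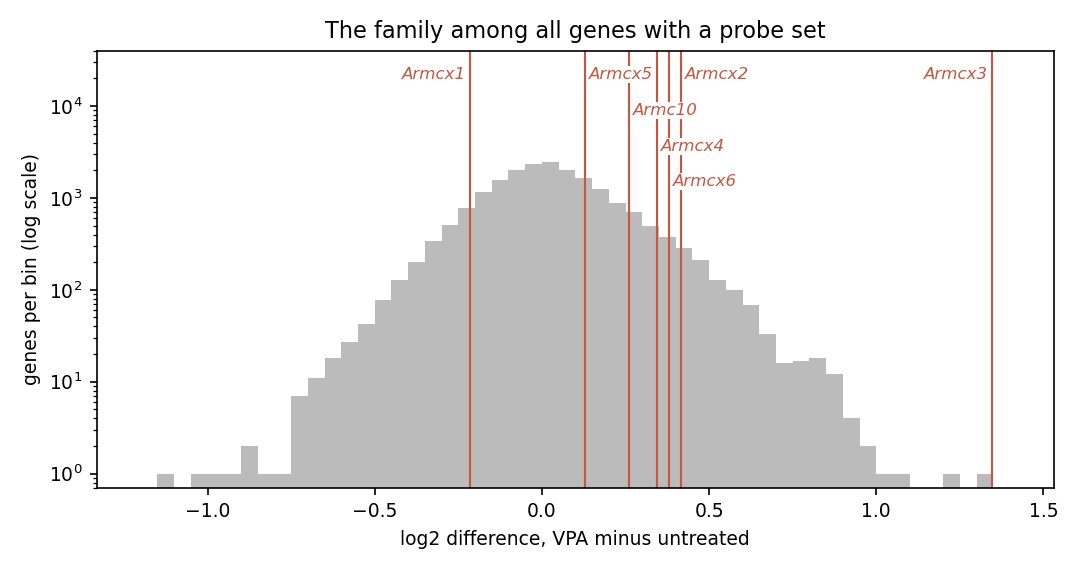
Number of genes (vertical axis, log scale) by log2 difference between VPA and untreated cells (horizontal axis) for all 19938 genes, with the 7 members as red lines. Armcx3 lies at the far right end at 1.35, and the other members lie between −0.21 and 0.42.

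By its main probe set Armcx3 had the highest difference of all genes, and the family was chosen by it. Genes around it on chromosome X could therefore only lie lower. Of the 6 genes with a probe set on each side in RefSeq order, 4 were members and 8 were not. Of those 8, 3 gave signals above the 95th percentile of olfactory receptor probe sets, and the rest give little hold on a change. The differences of the 8 ran from −0.23 to 0.46 with a median of 0.016, and 0 reached 1.5-fold without overlap. The highest was Gla, a lysosomal galactosidase, which was singled out after its values were seen: it read 7.41 and 7.23 in untreated and 7.70 and 7.87 in VPA cells, a log2 difference of 0.46 ± 0.13 (SE).

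Further along, a list of Bex, Tceal, Arxes and Bhlhb9 genes held 13 measured genes of 18 names, 12 of them on X. Of these 13, 9 gave signals above the 95th percentile of olfactory receptor probe sets, and Tceal6 was also among the flanking genes above. The log2 differences of the 13 had a median of 0.076, 10 were higher and 3 lower, and 0 were called or had an unadjusted p under 0.05. Bhlhb9, a further armadillo-repeat gene of the Gprasp branch, read 6.65 and 5.96 in untreated and 6.66 and 6.81 in VPA cells. Its difference of 0.43 ± 0.24 (SE) rests on untreated 2, without which it was 0.089. Arxes2 (0.52 ± 0.26) also read low in untreated 2, at 5.68 against 6.37 in untreated 1, and differed by 0.18 without that array, while Arxes1 differed by 0.36 ± 0.21 with overlapping groups.

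**Figure D4:**
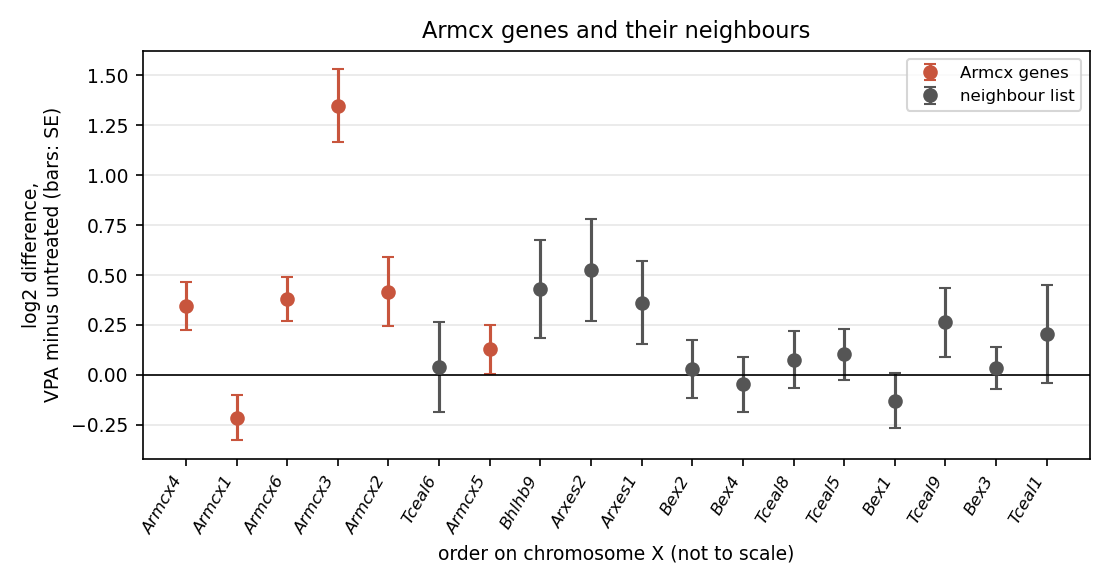
Log2 difference between VPA and untreated cells with its SE (vertical axis) for 6 Armcx genes and 12 listed neighbours in their order on chromosome X (horizontal axis, not to scale). Armcx3 stands at 1.35 between Armcx6 at 0.38 and Armcx2 at 0.42, Armcx1 lies below 0, and no listed neighbour exceeds 0.52.

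Genes that work beside the family were described from lists of their partners. Mitochondrial transport and dynamics genes, which hold the Miro, Trak and kinesin partners of Armcx3, had a median log2 difference of 0.11 over 24 genes, with 15 higher and 9 lower. None was called. At an unadjusted limma p under 0.05, 2 were higher and 0 lower, which is 8.33% of the list against 8.61% of all genes. Kif1b, a kinesin that carries mitochondria and synaptic vesicle precursors, read 5.99 and 5.95 in untreated and 6.47 and 6.61 in VPA cells, a difference of 0.57 ± 0.11 (SE). The kinesin heavy chain gene Kif5c differed by 0.42 ± 0.13, but its relatives Kif5a (−0.094 ± 0.12) and Kif5b (−0.0019 ± 0.17) did not rise. The Miro gene Rhot1 differed by 0.24 ± 0.16, Trak1 by 0.086 ± 0.22 and Trak2 by 0.23 ± 0.11. Fis1, an outer membrane protein of mitochondrial fission, had lower values with VPA, by −0.53 ± 0.22, and read 7.93 and 8.31 against 7.82 and 7.36. The 22 other proteins of the mitochondrial outer membrane had a median of −0.0047, with 11 higher and 11 lower, and 0 were called. At an unadjusted p under 0.05 there was 1 higher (4.55% of the list), Maoa, a monoamine oxidase (0.40 ± 0.15). The channel gene Vdac3 differed by 0.27 ± 0.12 and the import pore gene Tomm40 by −0.25 ± 0.11.

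The route on which Gprasp1 acts was represented by 26 genes of receptor sorting to lysosomes. Their median log2 difference was 0.18, with 20 higher, 6 lower and 0 called, where 53.7% of all genes were higher. At an unadjusted limma p under 0.05, 2 were higher and 0 lower, which is 7.69% of the list against 8.61% of all genes. The 2 were Rab11a, a GTPase of recycling endosomes, at 0.49 ± 0.14 (SE), and Dtnbp1, which encodes the Gprasp1 partner dysbindin, at 0.40 ± 0.13. Snx1, a sorting nexin, differed by 0.26 ± 0.12. Outside the family, 28 genes with armadillo repeats had a median of 0.029, 17 higher and 11 lower, and 0 were called. At an unadjusted p under 0.05 there was 1 higher (3.57% of the list), Pkp2, a desmosomal plakophilin. It read 6.38 and 6.30 in untreated and 6.88 and 6.91 in VPA cells (0.56 ± 0.11). Armc1 (0.27 ± 0.15) and the catenin gene Ctnnd1 (0.18 ± 0.10) came after it.

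**Figure D5:**
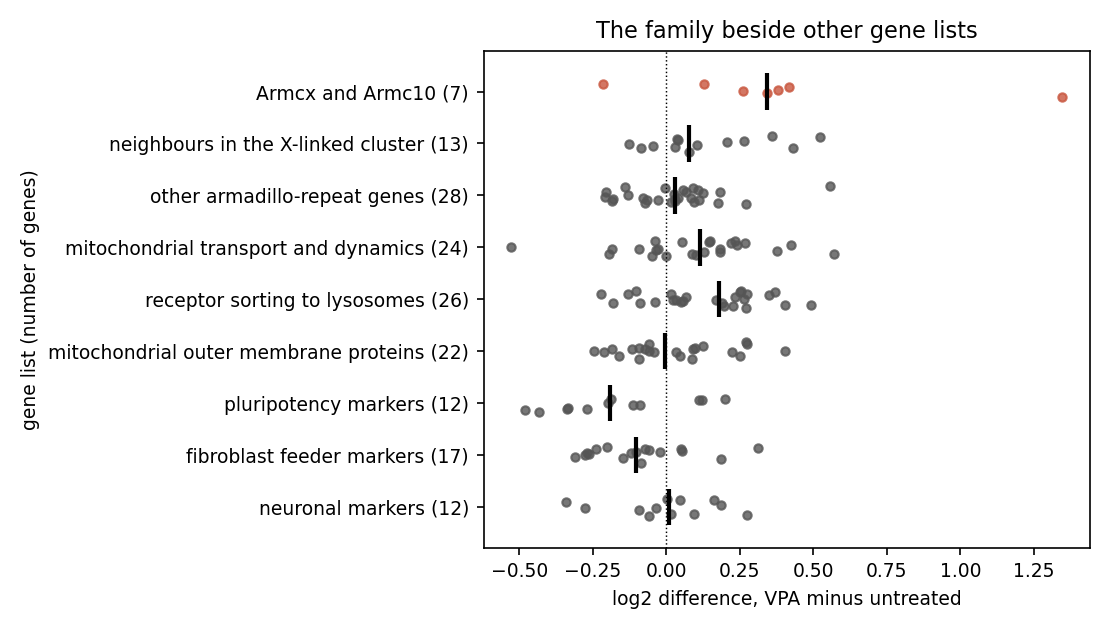
Log2 difference between VPA and untreated cells (horizontal axis) of each gene in the family and in 8 lists (vertical axis, with the number of genes), with a black bar at each median. Armcx3 is the only point above 0.6, and the list medians run from −0.19 for pluripotency markers to 0.18 for receptor sorting.

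Genes were also ordered by how near their profiles over the 4 arrays lay to that of Armcx3, with profiles centred on each gene's mean and compared by root mean square distance. The profile of Armcx3 is mostly its difference between the groups, so genes with large differences lead this order. The nearest named genes were Slc35f5, a solute carrier gene (distance 0.15), Bcl6b, a transcriptional repressor (0.19), Mospd1 (0.20), Insig2, a protein of the endoplasmic reticulum that restrains sterol synthesis (0.22), and Fn3krp, a kinase of glycated proteins (0.24). Slc35f5 read 7.09 and 6.72 in untreated and 7.94 and 7.99 in VPA cells, a log2 difference of 1.06, so that untreated 2 was the lowest array there too. Mospd1, also on chromosome X, read 7.03 and 6.53 against 7.77 and 8.23, a difference of 1.22. Within the family the nearest was Armcx6 at 0.50, where 960 other genes were nearer to Armcx3, and the farthest was Armcx1 at 0.80.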

How the data were processed

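Total RNA of 4 samples was measured on 1-colour Affymetrix arrays. The deposited table holds log2 signals, 1 per probe set and array. The submitters' processing notes name RMA and Affymetrix Expression Console 1.1, and RMA subtracts background, equalises the arrays' distributions and combines the probes of a set. The sources used here do not give which arrays went into 1 normalization. Values ran from 1.41 to 13.95, with array medians of 3.80 to 3.82. Symbols came from the platform annotation: 21789 probe sets had 1 symbol, 1621 several and 12146 none here. Probe sets with several symbols were tested and not named.

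VPA and untreated arrays were compared over all probe sets with limma 3.58.1 (lmFit, eBayes, treatment as the only term) in R 4.3.3, two-sided, with Benjamini-Hochberg adjustment and a threshold of 0.05. SEs are moderated ones from this fit, which has 2 residual and 2.93 prior degrees of freedom. Precision is limited by the 2 arrays per group. Non-overlap means that every array of one group lay above every array of the other. The genes named were all members, the 3 genes of smallest p in each of the 5 lists of neighbours and partners, the markers Nanog, Pou5f1, Col1a1 and Thy1, and the 5 genes nearest to Armcx3 (predicted genes not named). Gla, Kif5a, Kif5b, Rhot1, Trak1 and Trak2 were added after their values were seen. The members and lists were chosen with earlier results of these data known. Same-numbered samples did not deviate together (r = −0.097 across probe sets), so replicate numbers were not used as pairs. The fit was tested on simulated data. Alternatives covered normalization, limma options, dim probe sets, the choice of probe set, the replicate block and each array left out.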

Additional observations from a re-analysis of the deposited data

How the results depend on the processing

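After a second quantile normalization each of the 7 members kept the sign of its log2 difference, with Armcx1 at −0.29, Armc10 at 0.18 and Armcx3 at 1.27, and the members' median was 0.27. Armcx3 had the highest difference of all genes after that normalization and without untreated 1 (1.58), untreated 2 (1.11) or VPA 2 (1.38), and the second highest without VPA 1 (1.31). Over all probe sets, 2049 were higher and 1220 lower at an unadjusted limma p under 0.05 in the main fit. After the second quantile normalization 1670 were higher and 1542 lower, so the excess of higher ones was smaller. No alternative fit called a probe set (0 in each), the replicate block included. In this balanced design the block cannot change a difference, so the members' median of 0.34 under it carries no information. The median ran from 0.23 to 0.36 with 1 array left out. The number of members 1.5-fold apart without overlap then ran from 1 to 2, where Armcx2 joined Armcx3 without VPA 2. The median without Armcx3, 0.30, was added after seeing the data. Another choice of probe set can alter only Armcx3. Its probe set among X-linked neighbours, 10601778, differed by 1.15, below Mospd1 at 1.22. A left-out array leaves a group of 1, assumed to vary like the other group.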

Other observations

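The median log2 difference between VPA and untreated cells was 0.035 over 739 X-linked genes and 0.015 over 19108 autosomal ones. Genes with CACGTG in a RefSeq promoter window had a median of 0.029 (1483 genes), and those with a window and no CACGTG had one of 0.017 (14131 genes). Among the members with these letters, Armcx4 and Armcx6 were higher and Armcx1 was lower with VPA.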
